A study of Mus musculus with 32 samples.

Results

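The genes examined here are those of the insulin-like growth factor (IGF) axis in mouse bone marrow. They comprise the ligand gene Igf1, the receptor gene Igf1r and the binding protein genes Igfbp2, Igfbp3, Igfbp4, Igfbp5, Igfbp6 and Igfbp7. They were taken as a list of 8 named genes out of 41388 in the deposited count tables. All 8 passed the filter on low counts, which kept 14527 genes.

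The study removed cells that express adiponectin, a hormone of fat cells that also marks stromal cells of the marrow, and sequenced RNA of whole femur marrow from 32 C57BL/6 mice aged 2 months, 1 library per mouse. DTRADQ mice carry a floxed diphtheria toxin receptor gene (DTR flox) and Cre driven by the adiponectin promoter (ADQ Cre), so that diphtheria toxin (DT) can kill the cells in which Cre was active. Con mice are littermates with DTR flox and no Cre. The 8 groups of 4 mice were DTRADQ and Con mice injected with 100 ng DT per mouse daily for 1, 2 or 3 days (here day 1, 2 and 3), and DTRADQ and Con mice given no DT. Every Con mouse of a DT group received DT as well, so genotype comparisons on those days share the toxin and differ in Cre. The receptor is switched on wherever the adiponectin promoter has driven Cre, and whole marrow also holds blood cells of every stage. In such bulk samples, fewer cells of a type and less RNA per cell cannot be told apart.

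IGF-I is a growth factor made in liver and in many tissues, and it signals through the receptor tyrosine kinase encoded by Igf1r. The binding proteins are secreted carriers that hold IGF in the circulation and in the matrix and can limit or prolong its access to the receptor. Proteases such as pregnancy-associated plasma protein A (Pappa) cut some of these carriers and release the ligand. In bone, IGF-I is known as a growth factor of osteoblasts, and binding proteins are stored in bone matrix.

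Library totals ran from 8.97 M to 22.93 M reads, with a median of 14.18 M. Levels are given as CPM, read counts scaled to a common library size, with library sizes corrected for composition by the TMM method. Con No DT replicates 3 and 4 stood apart from the other 30 libraries, with TMM factors of 0.726 and 0.565 against 0.853 to 1.195, and with 37.41% and 50.69% of their reads in the 10 most counted genes against 19.4% to 30.87%. Fitted genotype differences without DT, and changes in Con from no DT, are therefore also given without them where their call or size moved, while levels and group means without DT include them. The targeted lineage was checked with Adipoq, the adiponectin gene, which lay between 0.264 and 1.07 CPM in the 12 DTRADQ libraries after DT, against 32.1 to 66.3 CPM in the 12 Con libraries after DT. All 8 markers of this lineage were called lower in DTRADQ on each of the 3 DT days, where 3.02%, 4.12% and 14.1% of all tested genes were. This marker list was chosen with earlier results of these data known, so the count is a description. Without DT the fitted log2 change of Adipoq, DTRADQ over Con, was -1.24 with all libraries. In that comparison 1 of the 8 markers was called lower, where 14.4% of all tested genes were. Neither the Adipoq change nor this count is given without Con No DT replicates 3 and 4. The labels name lane 8 for the day 3 libraries and all lanes for the others, so comparisons of day 3 with other days follow that label, while comparisons of genotypes on 1 day do not.

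The members lie on several chromosomes, and 2 of them are neighbours. In GRCm38, Igfbp5 (ENSMUSG00000026185) spans chr1:72857932-72874884 on the minus strand, and Igfbp2 (ENSMUSG00000039323) spans chr1:72824503-72852474 on the plus strand, with 5.46 kb between their 3' ends. Igfbp3 (ENSMUSG00000020427) lies at chr11:7206086-7213923 on the minus strand, 3.54 kb from Igfbp1, which had 0 reads in all 32 libraries. Igfbp4 (ENSMUSG00000017493) lies at chr11:99041244-99054392 on the plus strand and Igfbp6 (ENSMUSG00000023046) at chr15:102144362-102149511 on the plus strand. Igfbp7 (ENSMUSG00000036256) lies at chr5:77349240-77408045 on the minus strand, and 85 of its exonic bases are shared with Polr2b on the other strand. Since the strand setting of the counting is not given in the sources used here, its counts are uncertain to that extent. Igf1 (ENSMUSG00000020053) lies at chr10:87858265-87937042 and Igf1r (ENSMUSG00000005533) at chr7:67952859-68226780, both on the plus strand.

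The promoters of 4 binding protein genes are shown, chosen for differences described below. Igfbp5 and its neighbour Igfbp2 differed between the genotypes in opposite directions at day 3, and Igfbp4 differed in the same direction on every DT day. The genotype difference of Igfbp7 was not the same at days 1 and 3, though in the fit of all libraries it was not called on any DT day. Igfbp3, called at days 1 and 3 from low counts, is not shown, and its window held none of the motifs marked here. Igfbp2 was called at day 3 only. Each is the plus or minus strand window of 300 bases from RefSeq (GRCm38.p6), 250 bases before to 50 bases after an annotated start, read 5' to 3': chr1:72874816-72875115 (minus) for Igfbp5, chr1:72824230-72824529 (plus) for Igfbp2, chr11:99040994-99041293 (plus) for Igfbp4 and chr5:77407996-77408295 (minus) for Igfbp7. Capitals mark matches on either strand to the TATA box written as TATAAA or in a variant form as TATTTAA, to the box known by its letters CCAAT, to the GC box, which binds Sp1 and is written GGGCGG, and to the core site of C/EBP factors, here TTGCNNAA. None of these motifs overlaps another in the windows shown.
Igfbp5: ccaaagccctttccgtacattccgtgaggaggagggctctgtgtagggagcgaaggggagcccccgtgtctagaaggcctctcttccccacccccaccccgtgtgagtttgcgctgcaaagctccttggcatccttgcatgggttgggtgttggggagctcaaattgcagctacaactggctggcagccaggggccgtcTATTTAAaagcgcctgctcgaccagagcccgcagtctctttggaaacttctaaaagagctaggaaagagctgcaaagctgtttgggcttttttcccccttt
Igfbp2: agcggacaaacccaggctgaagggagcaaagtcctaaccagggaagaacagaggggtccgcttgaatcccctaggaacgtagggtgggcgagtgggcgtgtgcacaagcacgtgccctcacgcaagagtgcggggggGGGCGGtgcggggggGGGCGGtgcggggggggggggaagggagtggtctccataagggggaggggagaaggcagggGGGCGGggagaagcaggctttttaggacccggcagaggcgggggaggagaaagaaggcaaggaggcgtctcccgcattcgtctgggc
Igfbp4: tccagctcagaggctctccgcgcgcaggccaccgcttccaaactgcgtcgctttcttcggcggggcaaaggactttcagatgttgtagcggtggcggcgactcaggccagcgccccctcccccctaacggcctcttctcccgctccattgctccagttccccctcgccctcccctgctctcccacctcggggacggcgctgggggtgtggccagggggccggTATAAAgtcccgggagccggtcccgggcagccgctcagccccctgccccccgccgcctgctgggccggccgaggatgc
Igfbp7: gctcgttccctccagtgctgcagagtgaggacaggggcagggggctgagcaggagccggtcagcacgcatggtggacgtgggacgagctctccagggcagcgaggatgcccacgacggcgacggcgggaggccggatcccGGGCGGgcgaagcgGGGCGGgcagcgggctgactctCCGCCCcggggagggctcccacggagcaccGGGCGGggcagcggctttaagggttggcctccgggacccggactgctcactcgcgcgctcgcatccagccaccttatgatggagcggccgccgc
The Igfbp4 window held TATAAA, which starts 28 bases before the annotated start. The Igfbp5 window held no TATAAA and held TATTTAA, a motif added after this window had been read, 51 bases before the annotated start. This RefSeq start is not the 5' end of the counted Igfbp5 gene, chr1:72874884, which lies upstream of it and nearer to the motif. For Igfbp4 both starts agree. The windows of Igfbp2 and Igfbp7 held neither of these motifs and held 3 and 4 copies of GGGCGG, counting both strands. A second annotated Igfbp2 promoter, chr1:72825137-72825436 (plus), is not shown. It held 0 copies of GGGCGG, with a GC content of 57.3%. Of 32851 promoters, 13.6% held the common form of the TATA box, 4.5% held the variant form and 35.7% held the GC box. The GC content was 56.3% for Igfbp5, 67.0% for Igfbp2, 71.3% for Igfbp4 and 73.3% for Igfbp7, against a median of 52.7% over all promoters. Of the members not shown, it was 49.7% for Igfbp6, 52.3% for Igf1, 71.7% for Igfbp3 and 76.0% for Igf1r. CCAAT, found in 37.4% of promoters, and the C/EBP core, found in 10.8%, matched none of the 4 windows, which says only that these letters are not in them.

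Igf1, the ligand gene, was not called between the genotypes on any day by the test used throughout, edgeR's quasi-likelihood test with Benjamini-Hochberg adjustment over 14527 genes and a threshold of 0.05. In DTRADQ marrow without DT its levels were 53.8, 60.1, 63.7 and 45.7 CPM, against 63.5, 54.8, 78.8 and 93.3 CPM in Con marrow without DT. At day 2 they were 39.3, 34.0, 34.1 and 40.7 CPM in DTRADQ, against 41.9, 43.5, 46.2 and 49.4 CPM in Con. At day 3 they were 41.5, 29.5, 41.6 and 30.6 CPM in DTRADQ, against 42.6, 41.2, 39.8 and 51.0 CPM in Con. The groups did not overlap at day 2 and overlapped without DT and at day 3. The fitted log2 change of DTRADQ over Con was -0.37 ± 0.16 (SE) before DT, -0.23 ± 0.16 on day 1, -0.29 ± 0.16 on day 2 and -0.29 ± 0.16 on day 3, with adjusted p of 0.087, 0.51, 0.27 and 0.21. Without Con No DT replicate 1 or replicate 2 the difference before DT passed, with adjusted p of 0.046 and 0.043. It was -0.22 (adjusted p = 0.34) without replicate 4 and -0.075 (adjusted p = 0.84) without both replicates 3 and 4.

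Igf1 was lower at days 2 and 3 of DT than without DT in both genotypes. In DTRADQ marrow the log2 change from no DT was -0.59 ± 0.16 at day 2 (adjusted p = 0.020) and -0.64 ± 0.16 at day 3 (adjusted p = 0.0033). In Con marrow, which received the same injections, it was -0.68 ± 0.16 at day 2 (adjusted p = 0.0022) and -0.73 ± 0.16 at day 3 (adjusted p = 0.00095). Without Con No DT replicates 3 and 4 the changes in Con were -0.38 and -0.42, with adjusted p of 0.12 and 0.072. The DTRADQ call at day 2 was lost without DTRADQ No DT replicate 3, DTRADQ day 2 replicate 2 or DTRADQ day 2 replicate 3, with adjusted p of 0.077, 0.073 and 0.075. Ordered by mean, Igf1 was highest in Con without DT, at 72.6 ± 17.02 CPM, and lowest in DTRADQ at day 3, at 35.8 ± 6.63 CPM (SD, n = 4 each), and each group overlapped the next in that order. Among 10 macrophage and monocyte markers, cells known to make IGF-I, edgeR called 0 between the genotypes on each DT day. Of all tested genes, 3.9%, 8.52% and 22.9% were called at days 1, 2 and 3. At an unadjusted p under 0.05 there were 1, 2 and 2 of the markers, and DESeq2 called 0, 1 and 0 of the markers. Their summed level at day 3 was 1566 to 1896 CPM in DTRADQ against 1421 to 1921 CPM in Con. Between DT and no DT in Con, 5 of the 10 were called at day 2 (2 higher, 3 lower), where 28.3% of all tested genes were called. At day 3 it was 6 (2 higher, 4 lower), where 30.2% were called. The sum in Con was 1349 to 1587 CPM at day 2 and 1421 to 1921 CPM at day 3, against 1883 to 2301 CPM without DT. These comparisons include Con No DT replicates 3 and 4, and marker values without them are not given. In DTRADQ 1 of the 10 was called on each of these days, higher, where 9.11% and 29.4% of all tested genes were called. The sum in DTRADQ was 1520 to 1959 CPM at day 2 and 1566 to 1896 CPM at day 3, against 1605 to 1825 CPM without DT. The part of these markers in the Igf1 result was not tested.

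Igf1r, the gene of the signalling receptor, was higher in DTRADQ marrow at days 2 and 3. At day 2 it stood at 39.0, 39.1, 45.3 and 30.3 CPM in DTRADQ, against 28.2, 21.8, 17.7 and 19.8 CPM in Con. At day 3 it stood at 37.4, 48.8, 41.8 and 37.6 CPM in DTRADQ, against 27.1, 30.1, 29.7 and 19.6 CPM in Con. On both days every DTRADQ library lay above every Con library. The log2 change was 0.81 ± 0.20 at day 2 (adjusted p = 0.0097) and 0.64 ± 0.20 at day 3 (adjusted p = 0.017), or 1.76-fold and 1.56-fold. At day 1 it was 0.37 ± 0.20 (adjusted p = 0.35) and without DT 0.13 ± 0.20 (adjusted p = 0.69), or 0.29 (adjusted p = 0.45) without Con No DT replicates 3 and 4, and the groups overlapped.

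The call for Igf1r at day 2 was lost without Con day 2 replicate 3, at 0.73 with an adjusted p of 0.051. The call at day 3 was lost without Con day 3 replicate 4, at 0.51 with an adjusted p of 0.090, and with the level of skeletal muscle markers as a covariate, at 0.60 with an adjusted p of 0.076. Within DTRADQ the receptor gene was higher than without DT by 0.80 ± 0.20 at day 2 (adjusted p = 0.011) and 0.90 ± 0.20 at day 3 (adjusted p = 0.00089), both on the log2 scale. The day 2 call was lost without DTRADQ No DT replicate 4, at 0.64 with an adjusted p of 0.068. In Con marrow the test against no DT was not passed by Igf1r on any DT day. The genotype difference after DT was not told from that before DT on any day, as the genotype-by-DT contrast of Igf1r was not called. Per kilobase of gene length, the level of Igf1 over that of Igf1r was 0.399 ± 0.0997 in DTRADQ at day 3 against 0.781 ± 0.272 in Con, and 1.21 ± 0.302 in DTRADQ against 1.65 ± 0.393 in Con without DT (SD, n = 4 each).

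**Figure D1:**
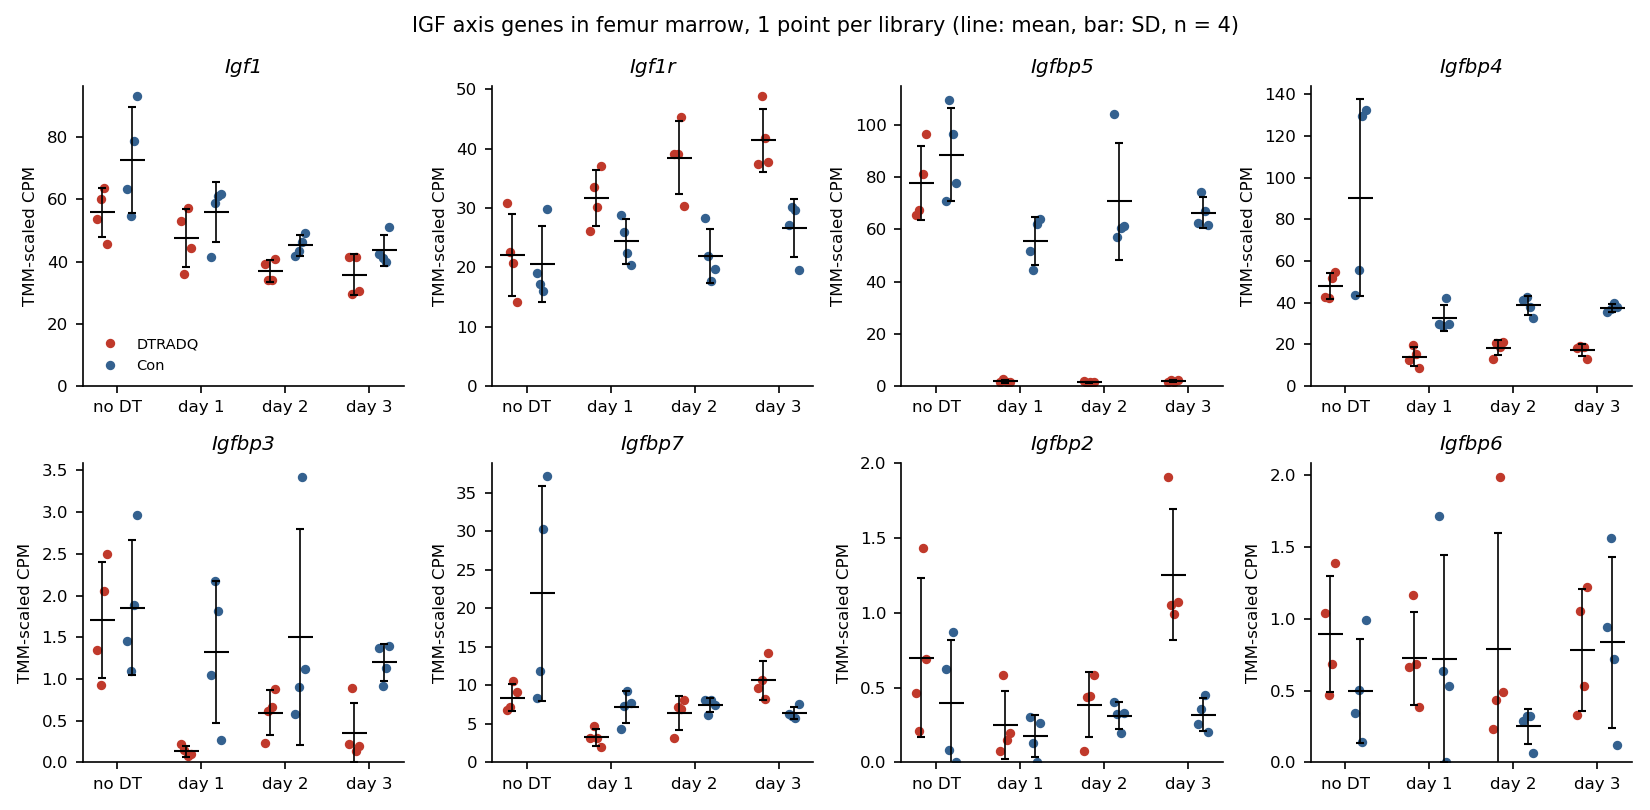
TMM-scaled CPM of the 8 genes in femur marrow, 1 point per library, with DTRADQ (red) left of Con (blue) without DT and after 1, 2 and 3 days of DT (black lines, mean and SD, n = 4). Igfbp5 lies between 1.14 and 2.70 CPM in the 12 DTRADQ libraries after DT, and the vertical scale differs between panels.

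Igfbp5 encodes a carrier that binds bone matrix, and of the 8 genes it showed the largest difference between DTRADQ and Con on each DT day. Without DT the genotypes overlapped, at 65.7, 67.6, 81.1 and 96.3 CPM in DTRADQ and 70.7, 109.5, 96.6 and 77.9 CPM in Con. At day 1 the levels were 1.54, 2.70, 1.446 and 1.36 CPM in DTRADQ, against 51.6, 44.6, 61.9 and 64.0 CPM in Con. The highest DTRADQ library, replicate 2, was still far below the lowest Con library. At day 2 they were 1.71, 1.14, 1.32 and 1.47 CPM in DTRADQ, against 104, 56.9, 60.5 and 61.4 CPM in Con. At day 3 they were 1.69, 2.11, 1.39 and 2.39 CPM in DTRADQ, against 62.5, 74.5, 67.0 and 61.6 CPM in Con. No DT day brought an overlap.

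The log2 change of Igfbp5 was -4.96 ± 0.24 at day 1, -5.64 ± 0.25 at day 2 and -5.11 ± 0.23 at day 3, with adjusted p of 5.3e-16, 8e-17 and 1.7e-16. These correspond to 3.22%, 2.01% and 2.89% of the Con level. The DTRADQ libraries held 91, 68 and 139 Igfbp5 reads over 4 libraries at days 1, 2 and 3, against 3391, 4546 and 6318 in Con. Without DT the change was -0.19 ± 0.18 (adjusted p = 0.47). The genotype-by-DT difference was -4.76 ± 0.30, -5.45 ± 0.31 and -4.92 ± 0.29 for days 1, 2 and 3, with adjusted p of 8.1e-13, 9.9e-14 and 1.7e-13, and -4.75, -5.42 and -4.88 without Con No DT replicates 3 and 4. The genotype difference at day 3 over that at day 1 was -0.16 ± 0.32 (adjusted p = 0.87), and it turned to 0.18 without DTRADQ day 1 replicate 2. By fitted change, Igfbp5 was 7th, 7th and 8th from the lowest of the 11503 genes whose log2 CPM averaged 1 or more at days 1, 2 and 3.

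Within Con marrow Igfbp5 was lower at day 1 than without DT, by a log2 change of -0.68 ± 0.18 (adjusted p = 0.0050), or -0.68 (adjusted p = 0.0185) without Con No DT replicates 3 and 4, and did not pass at days 2 and 3. Over the 32 libraries, the genes whose log2 levels followed Igfbp5 most closely were Adipoq, with a Pearson r of 0.98, Grem1, a secreted BMP antagonist, at 0.98, and Cxcl12, a chemokine of marrow stromal cells, at 0.98. These are marker genes of the targeted lineage in the list used here, and the points share the group structure, so r is a description of 32 libraries in 8 groups. The summed level of the 8 lineage markers was 36.2 to 51.3 CPM in day 1 DTRADQ libraries and 406 to 747 CPM in day 1 Con libraries, and 34.5 to 45.2 CPM in day 3 DTRADQ libraries and 513 to 659 CPM in day 3 Con libraries. The part of this loss in the Igfbp5 result was not tested.

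Igfbp4 encodes a carrier known to hold back IGF action until PAPP-A cuts it. Its levels at day 1 were 12.6, 19.6, 15.3 and 8.83 CPM in DTRADQ, against 29.8, 28.9, 42.2 and 29.8 CPM in Con. At day 2 they were 13.01, 20.6, 18.8 and 21.2 CPM in DTRADQ, against 41.3, 42.9, 38.0 and 32.5 CPM in Con. At day 3 they were 18.4, 19.0, 18.9 and 12.99 CPM in DTRADQ, against 35.4, 36.8, 39.8 and 37.8 CPM in Con. On all 3 days every DTRADQ library was below every Con library. The log2 change was -1.21 ± 0.26 at day 1, -1.07 ± 0.25 at day 2 and -1.11 ± 0.25 at day 3, with adjusted p of 0.0035, 0.0075 and 0.0014, or 43.3%, 47.5% and 46.3% of the Con level. All of these calls held without any single library.

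Before DT, Igfbp4 was also called lower, but this rested on Con No DT replicates 3 and 4. The levels were 42.9, 42.0, 51.9 and 54.5 CPM in DTRADQ, against 43.5, 55.6, 129.5 and 132 CPM in Con. Con replicates 3 and 4 lay above all other libraries without DT, and the remaining libraries overlapped. The log2 change was -0.91 ± 0.25 (adjusted p = 0.0072) with all libraries, and -0.04 (adjusted p = 0.93) without both replicates. Without replicate 3 alone it was -0.63 (adjusted p = 0.081), and without replicate 4 alone -0.64 (adjusted p = 0.054). With all libraries, these 2 replicates among them, the genotype-by-DT contrast did not call Igfbp4 on any DT day. In that fit the difference after DT was not told from that before DT. When both replicates were left out, the genotype difference of Igfbp4 was -1.21, -1.06 and -1.09 at days 1, 2 and 3. Its adjusted p was 3.4e-05, 1.5e-04 and 1.9e-05, beside the change of -0.04 before DT. The genotype-by-DT contrast then called 3, 2 and 3 members, against 2, 1 and 2 with all libraries. The Igfbp4 value in that contrast is not given here. Within DTRADQ, Igfbp4 was lower than without DT at days 1, 2 and 3, by -1.76 ± 0.26, -1.38 ± 0.25 and -1.46 ± 0.25 on the log2 scale, with adjusted p of 1.9e-05, 0.00068 and 6.4e-05. In Con the corresponding changes were -1.46 ± 0.25, -1.21 ± 0.25 and -1.26 ± 0.25, with adjusted p of 4.5e-05, 0.00045 and 0.00025. Without Con No DT replicates 3 and 4 those in Con became -0.58, -0.34 and -0.39, with adjusted p of 0.042, 0.27 and 0.19. The genes closest to Igfbp4 over the 32 libraries were C1qbp, Ybx1 and Gnl3, with Pearson r of 0.96, 0.95 and 0.94. These r include Con No DT replicates 3 and 4, the libraries with the highest Igfbp4, and were not computed without them.

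Igfbp3, which encodes the main carrier of IGF in blood, was counted at low levels. At day 1 it stood at 0.220, 0.146, 0.0761 and 0.0970 CPM in DTRADQ, against 1.04, 2.17, 1.81 and 0.266 CPM in Con. These came from 3, 2, 1 and 1 reads in DTRADQ and 17, 34, 26 and 4 reads in Con. The groups did not overlap, and the lowest Con library, replicate 4, was close to the DTRADQ range. At day 3 the levels were 0.218, 0.886, 0.132 and 0.195 CPM in DTRADQ, against 1.37, 0.919, 1.13 and 1.39 CPM in Con. Here the highest DTRADQ library, replicate 2, lay just under the lowest Con library.

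The log2 change of Igfbp3 was -3.19 ± 0.73 at day 1 (adjusted p = 0.0068) and -1.71 ± 0.56 at day 3 (adjusted p = 0.026). At day 2 it was -1.34 ± 0.57 (adjusted p = 0.13), with 28 reads over the 4 DTRADQ libraries against 94 in Con, 53 of them in replicate 3, and it was -0.55 (adjusted p = 0.64) without that library. Without DT it was -0.05 ± 0.51 (adjusted p = 0.96), or 0.39 (adjusted p = 0.75) without Con No DT replicates 3 and 4. The call at day 3 was lost without DTRADQ replicate 1, 3 or 4 or Con replicate 1 or 4, with adjusted p of 0.086, 0.097, 0.090, 0.055 and 0.064. The genotype-by-DT difference was -3.14 ± 0.91 at day 1 (adjusted p = 0.021), and it missed the threshold without Con day 1 replicate 2, at -2.79 with an adjusted p of 0.051. Without Con No DT replicates 3 and 4 it was -3.58 (adjusted p = 0.017). Within DTRADQ, Igfbp3 was below its level without DT at day 1, by -3.54 ± 0.71 (adjusted p = 0.0015), and at day 3, by -2.20 ± 0.56 (adjusted p = 0.0036). The closest genes over the 32 libraries were Cp, Nsun2 and C1qbp, with Pearson r of 0.85, 0.83 and 0.82.

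Igfbp7 encodes a secreted protein of vessel walls that binds IGF weakly. Its levels at day 1 were 3.16, 4.74, 3.12 and 2.04 CPM in DTRADQ, against 4.29, 7.34, 9.25 and 7.72 CPM in Con. At day 2 they were 3.12, 7.25, 6.99 and 8.12 CPM in DTRADQ, against 8.06, 6.15, 8.07 and 7.48 CPM in Con. At day 3 they were 9.59, 10.8, 8.20 and 14.2 CPM in DTRADQ, against 6.23, 6.00, 5.78 and 7.61 CPM in Con. DTRADQ libraries were mostly the lower ones at day 1, overlapped Con at day 2 and all lay above Con at day 3. The log2 change was -1.11 ± 0.35 at day 1, -0.23 ± 0.33 at day 2 and 0.74 ± 0.32 at day 3, with adjusted p of 0.072, 0.71 and 0.092. In a fit of only the 2 groups compared, days 1 and 3 passed, with adjusted p of 0.029 and 0.0062, as they did when Con No DT replicates 3 and 4 were left out of the fit of all groups, with adjusted p of 0.0063 and 0.012.

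The genotype difference of Igfbp7 itself changed over time. At day 3 it exceeded that at day 1 by 1.85 ± 0.47 on the log2 scale (adjusted p = 0.012), and it remained called without any single library. It exceeded that before DT by 2.09 ± 0.45 (adjusted p = 0.0014), and by 1.03 (adjusted p = 0.042) without Con No DT replicates 3 and 4. Before DT the levels were 6.79, 7.20, 10.5 and 9.08 CPM in DTRADQ, against 8.40, 11.8, 30.4 and 37.2 CPM in Con. The log2 change of -1.35 ± 0.32 (adjusted p = 0.0026) again followed Con No DT replicates 3 and 4, without which it was -0.26 (adjusted p = 0.62). In Con, Igfbp7 was lower than without DT by -1.58 ± 0.33, -1.52 ± 0.33 and -1.73 ± 0.33 at days 1, 2 and 3 (adjusted p = 0.00042, 0.00072 and 0.00014), and none of these passed without the same replicates, at -0.48, -0.42 and -0.64 (adjusted p = 0.26, 0.33 and 0.11). Within DTRADQ it was lower at day 1, by -1.34 ± 0.35 (adjusted p = 0.017), a call lost without DTRADQ No DT replicate 3 or 4 or DTRADQ day 1 replicate 3 or 4, with adjusted p of 0.064, 0.051, 0.058 and 0.085.

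The gene closest to Igfbp7 over the 32 libraries was Plvap, which encodes a protein of endothelial diaphragms, with a Pearson r of 0.90. Of 8 endothelial markers, 6 rose in DTRADQ at day 3, where 8.8% of all tested genes were called higher. The summed level of the 8 markers was 155 to 207 CPM in DTRADQ against 84.5 to 113 CPM in Con. At day 1 edgeR called 0, with 4 at an unadjusted p under 0.05 and 1 called by DESeq2, and the sums were 116 to 135 CPM in DTRADQ against 101 to 129 CPM in Con. Without DT the endothelial sums were 97.0 to 118.7 CPM in DTRADQ against 86.9 to 120.5 CPM in Con. The part of these markers in the Igfbp7 result was not tested. Srm and Snhg15 followed, with r of 0.89 and 0.88. All of these r include Con No DT replicates 3 and 4, the libraries with the highest Igfbp7, at 30.4 and 37.2 CPM. They were not computed without them.

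Igfbp2 encodes a carrier abundant in blood, and its transcript was low in all groups. At day 3 it stood at 1.91, 1.05, 0.991 and 1.07 CPM in DTRADQ, against 0.256, 0.360, 0.452 and 0.204 CPM in Con. Every DTRADQ library was above every Con library, from 91 reads in DTRADQ and 30 reads in Con. The log2 change was 1.96 ± 0.53 (adjusted p = 0.0074), or 3.90-fold. It was 0.70 ± 0.64 without DT, 0.50 ± 0.80 at day 1 and 0.26 ± 0.69 at day 2, with adjusted p of 0.45, 0.81 and 0.86 and overlapping groups. Between 0 and 21 reads per library lay behind those values, and leaving out 1 library moved them. The value without DT ranged from 0.10 (without DTRADQ replicate 3) to 1.16 (without Con replicate 3), that at day 1 from -0.37 (without DTRADQ replicate 2) to 0.90 (without Con replicate 1), and that at day 2 from 0.036 (without DTRADQ replicate 4) to 0.64 (without DTRADQ replicate 1). Its neighbour Igfbp5 had the opposite direction at day 3, at -5.11. In the fit of all libraries the genotype-by-DT contrast of Igfbp2 was not called at day 3. Its difference at day 3 was thus not told from that without DT.

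Markers of several other cell types were also higher in DTRADQ at day 3, where 8.8% of all tested genes were called higher. Of 8 tested skeletal muscle markers 7 rose. The summed level over 9 muscle markers was 101 to 674 CPM in DTRADQ against 24.3 to 50.6 CPM in Con. Of 8 fibroblast and myofibroblast markers 6 rose, with a sum of 281 to 364 CPM in DTRADQ against 88.9 to 100.2 CPM in Con. Of 8 endothelial markers 6 rose, and the 1 tested chondrocyte marker rose. Osteoblast lineage markers went both ways, 2 higher and 2 lower of 8, as did erythroid markers, 2 higher and 4 lower of 6. Before DT, 2 of the 8 tested muscle markers were already called higher, where 12.7% of all tested genes were. Igfbp2 was not called then. With the muscle markers as a covariate the Igfbp2 change was 1.46 (adjusted p = 0.12). The part of the fibroblast, endothelial and chondrocyte markers was not tested. The genes closest to Igfbp2 over the 32 libraries were Kdelr3, Ccdc80 and S100a16, with Pearson r of 0.73, 0.72 and 0.71.

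Igfbp6 encodes a carrier that prefers IGF-II, and it was not called in any contrast. Its group means lay between 0.250 and 0.893 CPM, with single libraries from 0 to 1.99 CPM and from 0 to 39 reads. Over the 4 times the log2 change was 0.94 ± 0.77 (no DT), 0.01 ± 0.69 (day 1), 1.65 ± 0.79 (day 2) and -0.08 ± 0.62 (day 3), with adjusted p of 0.39, 1.00, 0.19 and 0.94. At this depth the standard errors allow differences of more than 1 log2 unit either way at day 1. The day 2 value was 0.59 when DTRADQ day 2 replicate 3, the highest library of its group, was left out. The closest genes were Tiparp, Dach1 and B4galt6, with Pearson r of 0.72, 0.69 and 0.69.

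**Figure D2:**
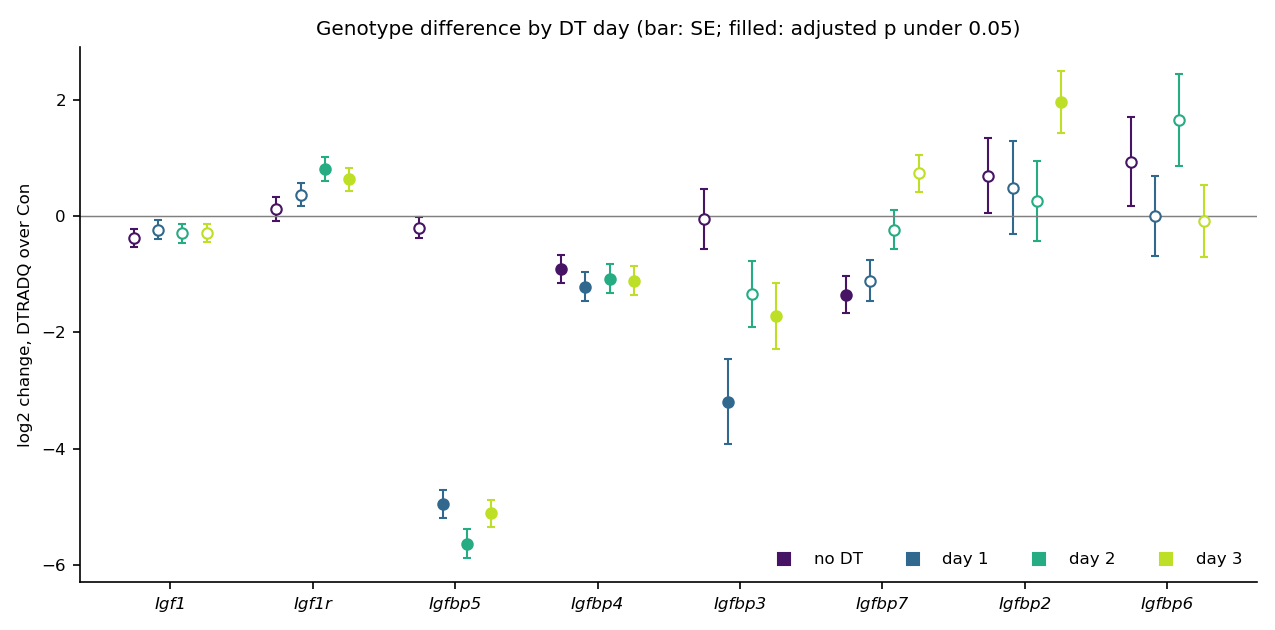
Fitted log2 change of DTRADQ over Con (points, with SE bars) for each of the 8 genes without DT and at days 1, 2 and 3, filled where the adjusted p is under 0.05. Igfbp5 lies at -4.96, -5.64 and -5.11 after DT, and Igfbp7 is the gene whose points go from below 0 at day 1 to above 0 at day 3.

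Counted over the 8 genes, 2 were called between the genotypes without DT, both lower in DTRADQ, where 27.1% of all tested genes were called, 12.7% higher and 14.4% lower. At day 1, 3 were called, all lower, against 3.9% of tested genes, 0.888% higher and 3.02% lower. At day 2, 3 were called, 1 higher and 2 lower, against 8.52%, of which 4.4% higher and 4.12% lower. At day 3, 5 were called, 2 higher and 3 lower, against 22.9%, of which 8.8% higher and 14.1% lower. The median log2 change of the 8 genes was -0.12 before DT, then -0.67, -0.26 and -0.18 on days 1, 2 and 3, beside medians of -0.01, -0.01, -0.04 and -0.02 over all tested genes. Without Con No DT replicates 3 and 4, edgeR called 0 members before DT, and 0 were at an unadjusted p under 0.05. Without Con day 3 replicate 4, 3 members were called at day 3.

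Groups that did not overlap were seen for 0 of the 8 genes before DT and for 3, 4 and 6 of them on days 1, 2 and 3, while 11.1%, 14%, 21.5% and 35.3% of all tested genes did not overlap. The genotype-by-DT contrast called 2 members at day 1 (12.3% of tested genes called), 1 at day 2 (11.1%) and 2 at day 3 (21%), and Igfbp5 was among them each time. It called 3, 2 and 3 members, and 1806, 1854 and 3577 genes in all, when Con No DT replicates 3 and 4 were left out. The change of the genotype difference between days 1 and 3 called 1 member, Igfbp7, where 7.23% of tested genes were called. DT against no DT called 4, 4 and 5 members in DTRADQ at days 1, 2 and 3, where 5.48%, 9.11% and 29.4% of tested genes were called. In Con it called 3 on each day, where 33.4%, 28.3% and 30.2% were called, and 2, 0 and 0 without Con No DT replicates 3 and 4, with 2, 1 and 3 at an unadjusted p under 0.05 in edgeR. The comparisons with no DT share their untreated libraries, so they are not independent of each other.

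Set side by side per kilobase of gene length, 3 genes made up most of the binding protein transcripts. In Con marrow at day 3 the level was 11.1 ± 0.977 CPM per kb for Igfbp5, 8.48 ± 0.417 for Igfbp4 and 5.28 ± 0.679 for Igfbp7, and Igfbp2, Igfbp3 and Igfbp6 each stood below 1 (SD, n = 4 each). The sum over the 6 binding protein genes was 7.002 ± 2.41 CPM per kb in DTRADQ at day 1 against 23.7 ± 3.30 in Con. At day 2 it was 10.8 ± 3.13 in DTRADQ against 27.5 ± 4.43 in Con, and at day 3 it was 14.5 ± 1.92 in DTRADQ against 26.1 ± 1.08 in Con. On each DT day the highest DTRADQ sum, at 10.2, 12.8 and 16.8, stayed below the lowest Con sum, at 20.9, 24.4 and 25.0. Without DT the sums overlapped, at 32.4 ± 5.53 in DTRADQ and 54.5 ± 22.5 in Con.

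The make-up of this sum differed as well. At day 1 Igfbp5 held 4.25% ± 0.720 of it in DTRADQ against 39.0% ± 4.01 in Con, and Igfbp4 held 45.7% ± 2.67 in DTRADQ against 31.1% ± 2.74 in Con. At day 3 Igfbp5 held 2.15% ± 0.229 in DTRADQ against 42.3% ± 2.14 in Con, and Igfbp7 held 60.0% ± 6.61 in DTRADQ against 20.3% ± 2.98 in Con. These shares depend on the division by the deposited length, which is 1213 bases for Igfbp7 and 4416 bases for Igfbp4. Before that division Igfbp4 stood above Igfbp7 in DTRADQ at day 3, at means of 17.3 and 10.7 CPM. Shares of a sum move together, so a smaller share of Igfbp5 raises the others. Over Igf1 per kilobase, the sum stood at 1.55 ± 0.839 in DTRADQ at day 1 against 4.26 ± 0.624 in Con, and at 4.19 ± 1.27 in DTRADQ at day 3 against 5.99 ± 0.756 in Con, where the libraries overlapped. These sums and shares are descriptions without a test.

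**Figure D3:**
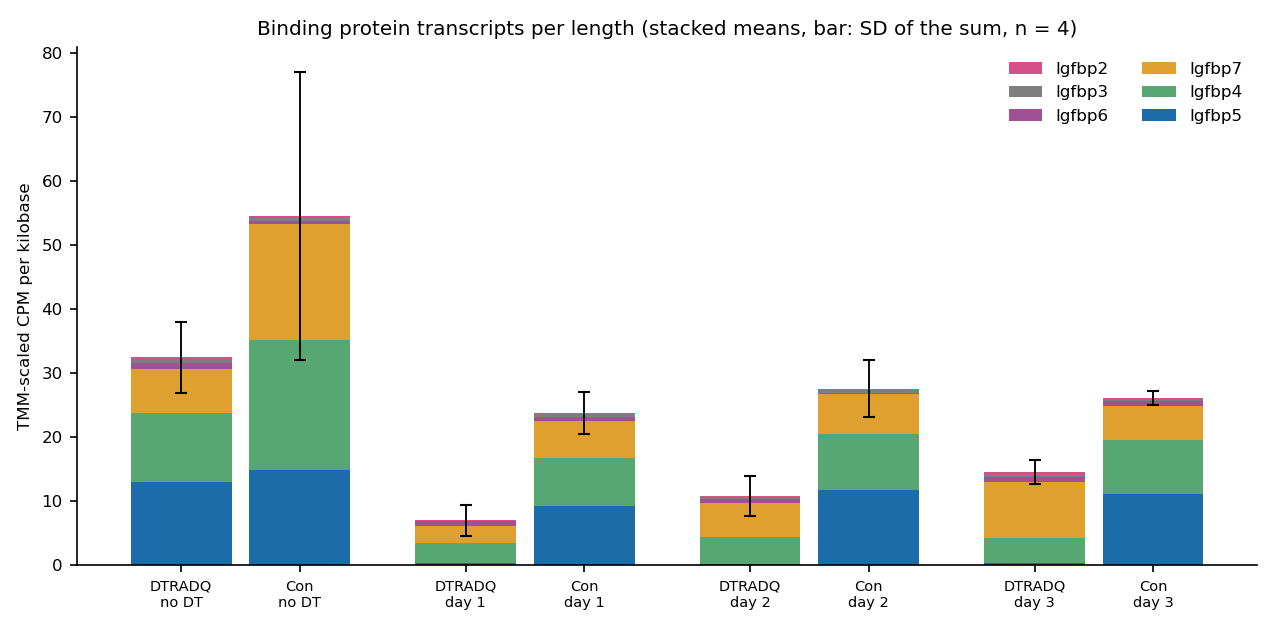
Mean TMM-scaled CPM per kilobase of the 6 binding protein genes, stacked, with DTRADQ left of Con at each time (bar, SD of the sum over 4 libraries). The Igfbp5 part is 9.24 in Con and 0.293 in DTRADQ at day 1, and the large SD in Con without DT comes from libraries between 29.7 and 75.4.

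Beyond the 8 genes, 38 other genes of the pathway were listed and 32 could be tested. Without DT 6 were called higher and 1 lower, where 27.1% of all tested genes were called. At day 1 it was 1 higher and 6 lower (3.9% of all tested genes), at day 2 it was 1 and 5 (8.52%), and at day 3 it was 4 and 7 (22.9%). The lower calls on each DT day include Pdk1, whose symbol stands for pyruvate dehydrogenase kinase and not for the AKT-activating kinase. The list was chosen with earlier results of these data known. Of its 6 untested genes Igfbp1 had 0 reads, and Igfals, which encodes the acid-labile subunit of the serum IGF complex, had 30 reads over all 32 libraries.

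Among the proteases of binding proteins, Pappa was lower in DTRADQ on each DT day. At day 1 it stood at 1.47, 2.99, 3.65 and 1.75 CPM in DTRADQ, against 8.58, 10.3, 15.3 and 13.2 CPM in Con. The groups did not overlap, and its log2 change was -2.25 ± 0.43 at day 1, -2.21 ± 0.43 at day 2 and -1.33 ± 0.39 at day 3, with adjusted p of 0.00094, 0.0011 and 0.013. The day 3 call was lost without Con day 3 replicate 4, at -1.03 with an adjusted p of 0.083. Before DT the change of -1.35 ± 0.38 (adjusted p = 0.0083) became 0.12 (adjusted p = 0.83) without Con No DT replicates 3 and 4, and it was -0.43 (adjusted p = 0.28) without replicate 4 alone. The serine protease gene Htra3 had 2 reads in DTRADQ and 39 reads in Con at day 1 (adjusted p = 0.0020). Its log2 change was -0.51 ± 0.49 at day 2 (adjusted p = 0.55) and 0.58 ± 0.41 at day 3 (adjusted p = 0.33), with overlapping groups, and the genotype difference at day 3 exceeded that at day 1 by 4.35 ± 0.88 (adjusted p = 0.0015). Htra1, a related protease gene, was lower at day 2, at -1.44 ± 0.40 (adjusted p = 0.021), and this call needed each of DTRADQ replicates 2 and 3 and Con replicates 3 and 4 (without them, adjusted p = 0.094, 0.061, 0.068 and 0.057). Adamts1, a secreted metalloprotease gene, was higher at day 3, at 1.59 ± 0.26 (adjusted p = 3.9e-05).

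Of the other ligand and the growth hormone axis, Igf2 had 0 reads in DTRADQ at day 1 and 30 reads in Con, which is at least 8.27-fold lower at a floor of 3 reads over the group (adjusted p = 0.0087). It shares 98 exonic bases with Igf2os on the other strand. Ghr, the growth hormone receptor gene, stood at 0.809, 0.949, 0.990 and 0.194 CPM in DTRADQ at day 1, against 2.76, 3.32, 2.92 and 5.52 CPM in Con. Its groups stayed apart on all 3 DT days, with log2 changes of -2.25 ± 0.32, -2.05 ± 0.31 and -1.05 ± 0.27 (adjusted p = 1.1e-05, 3.9e-05 and 0.0043). Cish, a feedback inhibitor gene of cytokine and growth hormone signalling, was higher at days 1 and 2, at 1.24 ± 0.27 and 1.20 ± 0.27 (adjusted p = 0.0052 and 0.0060), and shares exons with Gm17040 and Gm17041. Socs2, another such inhibitor, was higher at day 3, at 0.93 ± 0.26 (adjusted p = 0.0085). Stat5a, a transcription factor gene downstream of the growth hormone receptor that shares exonic bases with Stat3, was lower at day 2, at -0.47 ± 0.12 (adjusted p = 0.015), a call lost without DTRADQ day 2 replicate 4 (adjusted p = 0.076). Jak2, the kinase gene of that receptor, was called lower at day 3, at -0.35 ± 0.13 (adjusted p = 0.048), but not in most fits that left out 1 library, in which the adjusted p reached 0.19.

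Among genes of signalling below the receptor, Grb10, an adaptor that restrains IGF and insulin receptors, changed direction. At day 1 it stood at 3.60, 3.94, 4.11 and 3.69 CPM in DTRADQ, against 6.99, 7.28, 8.07 and 7.52 CPM in Con. At day 3 it stood at 10.8, 10.1, 11.3 and 13.5 CPM in DTRADQ, against 6.02, 6.15, 6.50 and 6.63 CPM in Con. The groups were apart on both days in opposite directions, at -0.96 ± 0.18 (adjusted p = 0.00068) and 0.85 ± 0.16 (adjusted p = 0.00024) on the log2 scale, and the difference between these days was 1.81 ± 0.24 (adjusted p = 2.7e-05). At day 3 Akt1, a kinase gene of growth factor signalling, was higher at 0.62 ± 0.15 (adjusted p = 0.0030). Pik3r1, a regulatory subunit of PI3-kinase, Foxo3, a transcription factor restrained by AKT, and Pdpk1, the kinase that activates AKT, were lower at -0.88 ± 0.16, -0.79 ± 0.20 and -0.48 ± 0.12 (adjusted p = 0.00011, 0.0043 and 0.0037).

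Pdk1, whose symbol here stands for pyruvate dehydrogenase kinase and not for the AKT-activating kinase, was lower on each DT day, at -0.77 ± 0.19, -0.78 ± 0.19 and -0.73 ± 0.19 (adjusted p = 0.017, 0.011 and 0.0047). Its call was lost at day 1 without DTRADQ replicate 4 or Con replicate 3 (adjusted p = 0.060 and 0.055), and at day 2 without DTRADQ replicate 3 or Con replicate 3 (adjusted p = 0.050 and 0.056). Before DT, Igf2r, Stc1, Pik3ca, Pdpk1, Foxo3 and Eif4ebp1 were called higher, at 0.58, 1.80, 0.30, 0.32, 0.97 and 0.48 on the log2 scale. When Con No DT replicates 3 and 4 were left out, Stc1 was 1.18 (adjusted p = 0.25) and Pik3ca 0.28 (adjusted p = 0.15), both no longer called. Igf2r, Pdpk1, Foxo3 and Eif4ebp1 were then still called, at 0.68, 0.53, 0.71 and 0.655. Among fits that left out 1 library, the call was lost in 3 for Stc1 (DTRADQ No DT replicate 3, Con No DT replicate 3 or 4) and in 3 for Pik3ca (DTRADQ No DT replicate 1 or 2, Con No DT replicate 3). It was lost in 4 for Pdpk1 (DTRADQ No DT replicate 1 or 4, Con No DT replicate 1 or 2) and in 5 for Eif4ebp1 (DTRADQ No DT replicate 1, 2 or 3, Con No DT replicate 2 or 3), and in none for Igf2r and Foxo3. In an edgeR fit of only the 2 groups without DT, 0 of the 8 members, 0 of the other pathway genes and 0 of all genes were called, with 2, 5 and 2940 at an unadjusted p under 0.05.

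**Figure D4:**
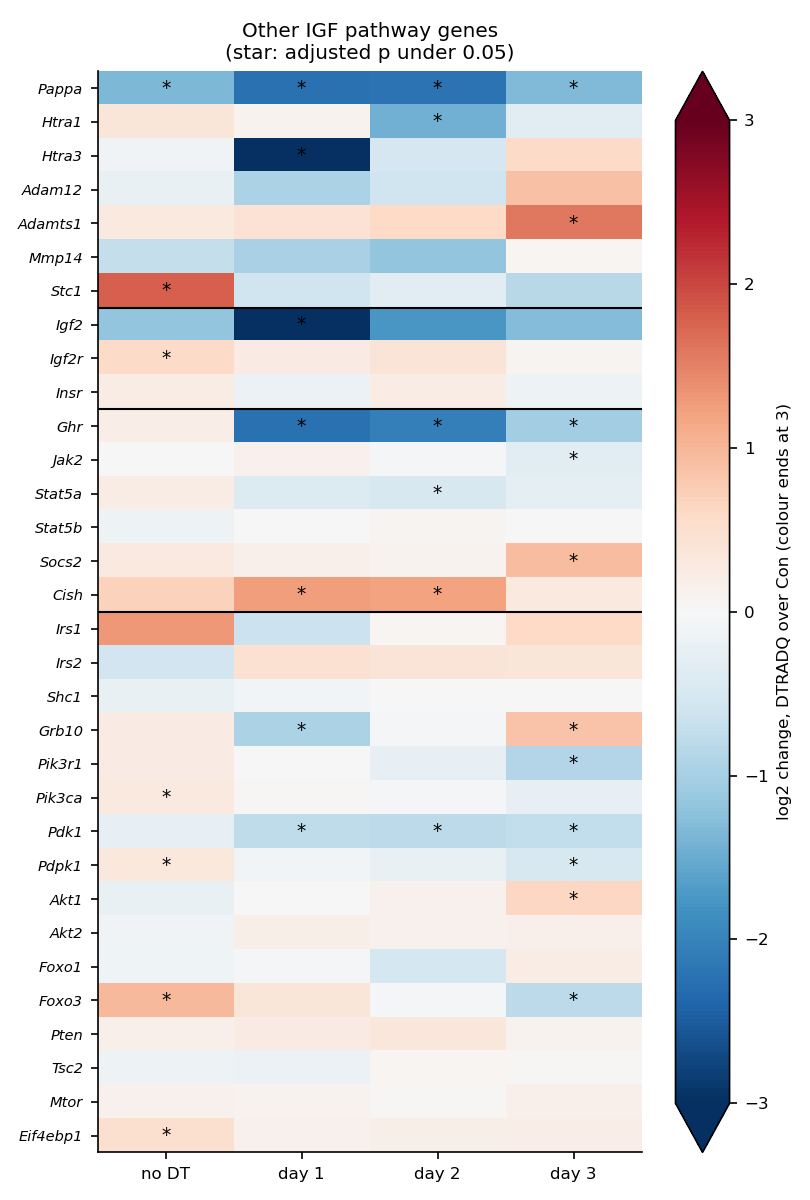
Fitted log2 change of DTRADQ over Con for the 32 tested other pathway genes (rows, grouped as proteases and inhibitors, ligands and receptors, growth hormone axis and receptor signalling) without DT and at days 1, 2 and 3 (columns), with a star where the adjusted p is under 0.05. Pappa and Ghr are blue (lower in DTRADQ) at all 3 DT days, and Grb10 is blue at day 1 and red (higher) at day 3.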

How the data were processed

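Per the labels' protocols, total RNA of whole femur marrow was extracted with Trizol, cleaned on RNeasy columns and sequenced after SMARTer library preparation (Clontech). GRCm38, STAR 2.0.4b, Subread with featureCounts 1.45, and bcl2fastq are listed in the submitters' processing notes. Which annotation release and strand setting were used, and how multi-mapped reads were handled, is not given in the sources used here. The authors deposited, per the file headers, a raw read count, a CPM and an RPKM value per gene and library. The counts were analysed, and the deposited CPM and RPKM columns were only checked against them, with a largest CPM difference of 4.4e-10 and a largest relative RPKM difference of 3.9e-14. Of 41388 genes 97.26% had a symbol. The labels do not say that mice came from separate litters or cages, and each library is 1 mouse.

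In R 4.3.3, edgeR 4.0.16 fitted 1 quasi-likelihood model with 8 group means to 14527 genes (filterByExpr, minimum count 10, TMM). Each contrast was tested two-sided, with Benjamini-Hochberg adjustment over all tested genes and a threshold of 0.05. The SE is the absolute log2 change over the square root of the F statistic. The contrasts were DTRADQ against Con at each time, the difference of that effect after DT from that without DT (genotype by DT), DT against no DT within each genotype, and the genotype effect at day 3 against day 1. The code was tested on simulated data with known changes. CPM in the text are counts scaled by TMM, and per kilobase values were divided by the deposited length. Likeness is Pearson's r of log2(CPM + 0.5) over 32 libraries among the 11503 genes whose log2 CPM averaged 1 or more, with the 3 closest genes named per member. It includes Con No DT replicates 3 and 4 throughout.

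The 8 members, the pathway list and the marker lists were chosen with earlier results of these data known. Named genes are the members, pathway genes that passed in a genotype contrast, and marker genes where a result needs them. Promoters come from RefSeq tables of GRCm38.p6, in which all 8 members had an entry. Alternatives were DESeq2 1.42.0, its size factors in edgeR, no filter, the 2 groups alone, a muscle marker covariate, leaving out both Con No DT replicates 3 and 4, leaving out each library, and the replicate number as a block. The titles number libraries 1 to 4 in each group. Deviations from group means of same-numbered DTRADQ and Con libraries correlated at 0.117 to 0.151 without DT, where every pair was over 0.1. After DT they correlated at -0.127 to 0.109. Differently numbered libraries were not correlated, so these values cannot show whether the numbers mark pairs. Unless a block is named, values in the text come from the fit without it.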

Additional observations from a re-analysis of the deposited data

Results flagged for a closer look

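Single libraries lay far from the other 3 of their group for 9 of the 64 combinations of gene and group, and chance flags about 1 in 20. Igfbp5 stood at 2.70 CPM in DTRADQ day 1 replicate 2 and at 104.1 CPM in Con day 2 replicate 1. Igfbp4 stood at 12.99 CPM in DTRADQ day 3 replicate 4 and at 42.16 CPM in Con day 1 replicate 3. Igfbp3 stood at 0.886 CPM in DTRADQ day 3 replicate 2, and without this library its log2 change at day 3 was the lowest found, at -2.61. Igfbp2 stood at 1.91 CPM in DTRADQ day 3 replicate 1. Igfbp6 stood at 1.99 CPM in DTRADQ day 2 replicate 3 and at 0.0656 CPM in Con day 2 replicate 4. Igf1 stood at 41.6 CPM in Con day 1 replicate 1.

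The genotype difference itself changed for 3 genes by the test of that change. For Igfbp5 the genotype difference moved by -4.76, -5.45 and -4.92 on the log2 scale from no DT to days 1, 2 and 3. For Igfbp3 it moved by -3.14 from no DT to day 1, a call lost without Con day 1 replicate 2 (adjusted p = 0.051). For Igfbp7 it moved by 2.09 from no DT to day 3 and by 1.85 from day 1 to day 3. The first of these was 1.03 (adjusted p = 0.042) without Con No DT replicates 3 and 4.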

How the results depend on the processing

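With edgeR fitted to only the 2 groups compared, 0 members, 0 other pathway genes and 0 genes in all were called without DT (2, 5 and 2940 at an unadjusted p under 0.05), against 2, 7 and 3944 in the fit of all groups. That fit called 940, 2621 and 5138 genes at days 1, 2 and 3, against 567, 1238 and 3330. Without both Con No DT replicates 3 and 4, the counts without DT were 0 members, 4 other pathway genes and 1875 genes. The same omission gave 1337, 2896 and 5023 genes between the genotypes at days 1, 2 and 3, and 3125 genes for DT against no DT in Con at day 1, where 4859 were called with them. It gave 1887 and 2943 genes in DTRADQ at days 1 and 2, and 1814 for day 3 against day 1. It called 2 members in the genotype-by-DT contrast at day 2 and 0 members in Con at days 2 and 3 (1 and 3 at an unadjusted p under 0.05). It turned the log2 change of Pappa without DT to 0.12 and that of Igfbp3 without DT to 0.39, and without a filter on low counts Igfbp3 without DT was 0.013, none of these called. With the muscle covariate 3 members were called at day 3, where Igfbp2 and Igf1r missed the threshold. The causes of these differences were not tested.

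Leaving out 1 library at a time, members called between the genotypes ranged from 1 to 3 without DT and from 3 to 6 at day 3, and other pathway genes from 4 to 10 without DT. The fewest members came without Con No DT replicate 3 or 4, and without Con day 3 replicate 4. Genes called ranged from 2268 to 5947 without DT, from 326 to 910 at day 1 and from 574 to 2126 at day 2. In the genotype-by-DT contrast, members ranged from 1 to 2 at days 1 and 2 (1 without Con day 1 replicate 2), and genes from 1231 to 3951 and from 1135 to 3745. In DTRADQ, DT against no DT called 437 to 1314 genes at day 1 and 540 to 2253 at day 2. Low or near-zero changes that turned sign ranged, on the log2 scale, from -0.28 to 0.23 (Igfbp3 without DT), -0.078 to 0.35 (Igf1r without DT), -0.37 to 0.90 (Igfbp2 day 1), -0.39 to 0.88 (Igfbp6 day 1), -0.44 to 0.42 (Igfbp6 day 3), -0.34 to 0.024 (Igfbp7 day 2) and -0.29 to 0.18 (Igfbp5, day 3 against day 1).

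The replicate block changed no count of members, with 2, 3, 3 and 5 called without DT and at days 1, 2 and 3, and of 92 log2 changes it ended 1 call, Jak2 at day 3 (adjusted p = 0.051). DESeq2 kept 90 of 92 changes on their side of the threshold and DESeq2 size factors 89. Igfbp2, Igfbp3 and Igfbp6 rest on at most 53 reads per library, which limits what could be detected for them.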
